A study of Cymbopogon flexuosus and Cymbopogon winterianus with 4 samples.

Results

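A set of 183 lemongrass contigs was read in both leaf libraries of lemongrass and hardly at all in those of citronella. They were chosen from the deposited counts: each lemongrass library had to hold 10 or more counts of a contig, and the citronella counts summed over the 2 libraries could not pass 3. The set is 0.716% of all 25576 lemongrass contigs, and 0.753% of the 24315 detected in lemongrass, meaning that each of its libraries held 10 or more counts. A contig is a stretch of assembled sequence that stands for a transcript or a piece of one, and "lemongrass contig" means that its ID carries the prefix of the lemongrass libraries. Because the counts of all 4 libraries chose the members, the gap between the species is a description here and is not tested.

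The libraries came from leaves of Cymbopogon flexuosus (lemongrass) and Cymbopogon winterianus (citronella), 2 of each species. Plants of both species grew in field plots under control conditions with no treatment. The labels give neither plant age nor the number of plants behind a library, so the spread between libraries may be technical. Total RNA was sequenced as paired ends from TruSeq libraries. The lemongrass libraries held 5787640 and 6636226 counts on lemongrass contigs, and the citronella libraries 9485822 and 4875674.

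Both grasses store scented oils in their leaves. Lemongrass oil is known for citral, a blend of the aldehydes geranial and neral, and citronella oil for citronellal, citronellol and geraniol. All of these are monoterpenes, which plants build in plastids from geranyl diphosphate and then change by oxidation, reduction and acylation, so closely related species can differ in scent through enzymes of these last steps. The files do not pair contig IDs with gene names, sequences or lengths. No member can thus be placed in this pathway, the leaf label could not be checked against leaf markers, and members are given by ID or by rank.

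The members carried a small share of the lemongrass leaf transcripts. Summed over the set, the lemongrass libraries held 6720 and 7529 counts, against 217 and 147 counts in the citronella libraries. As a share of each library this was 0.116% (95% exact binomial interval 0.113 to 0.119%) and 0.113% (0.111 to 0.116%) in lemongrass, against 0.00229% (0.00199 to 0.00261%) and 0.00301% (0.00255 to 0.00354%) in citronella. The lemongrass libraries were close to each other, and both stood far above the citronella libraries. In CPM, the count scaled to a common library total, lemongrass summed to 1148 ± 18.8 and citronella to 26.5 ± 5.14 (SD, n = 2 each). Pooled over the libraries of a species, the members were 45.3-fold higher in lemongrass (95% exact interval 40.8 to 50.4, counting error alone). The rule fixes this direction, and the interval does not allow for the choice of members on the same counts. Fewer cells with a transcript and less RNA per cell cannot be told apart in whole leaves, nor can less RNA be told apart from reads that were not placed on a contig of the other species.

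Most members were transcripts of low abundance. Their mean lemongrass level ran from 1.70 to 61.2 CPM with a median of 4.29, and the middle of the set lay between 3.07 and 6.49 CPM (quartiles). The other 24132 contigs detected in lemongrass had a median of 10.6 CPM, and 23 of the 183 members stood above that. CPM is not corrected for contig length, so these levels compare contigs only loosely. In counts, the members ranged from 10 to 389 in the first lemongrass library (median 26) and from 10 to 366 in the second (median 29).

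The highest member, g.contigcf2367, stood apart from the rest. It had 389 and 366 counts in the lemongrass libraries, against 2 and 1 counts in the citronella libraries. That was 67.2 and 55.2 CPM in lemongrass, a mean of 61.2 ± 8.53 (SD, n = 2), and 0.211 and 0.205 CPM in citronella. The pooled ratio of lemongrass to citronella was 291 (95% exact interval 99.2 to 1414, which does not allow for the choice of members on the same counts). The files give no function for this contig.

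The next member was g.contigcf4455. It had 192 and 211 counts in lemongrass, against 2 and 1 in citronella, or 32.5 ± 0.975 CPM in lemongrass (SD, n = 2). Its pooled ratio was 155 (95% exact interval 52.8 to 756, with the same limit). The member at rank 3 lay just below, at 29.3 ± 4.0 CPM in lemongrass (SD, n = 2), with 153 and 213 counts in lemongrass against 1 and 2 in citronella. These neighbours overlapped: the second lemongrass library gave 32.1 CPM for rank 3 and 31.8 CPM for g.contigcf4455. The member at rank 4 had 174 and 178 counts in lemongrass against 3 and 0 in citronella, or 28.4 ± 2.29 CPM in lemongrass (SD, n = 2), which overlapped with rank 3. The leading member was above all of these in both lemongrass libraries.

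Below these the levels fell off gradually. The members ranked 5 to 10 stood between 15.3 and 22.9 CPM in lemongrass. The leading 10 took 23.4% and 23.0% of the members' counts in the lemongrass libraries, and the leading 2 took 8.65% and 7.66%. The rest of the members' counts was spread over the other 173 contigs. The set held none of the abundant leaf transcripts: of 2205 contigs at 100 CPM or more in lemongrass, 0 were members, and 3698 contigs stood above the leading member.

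**Figure D1:**
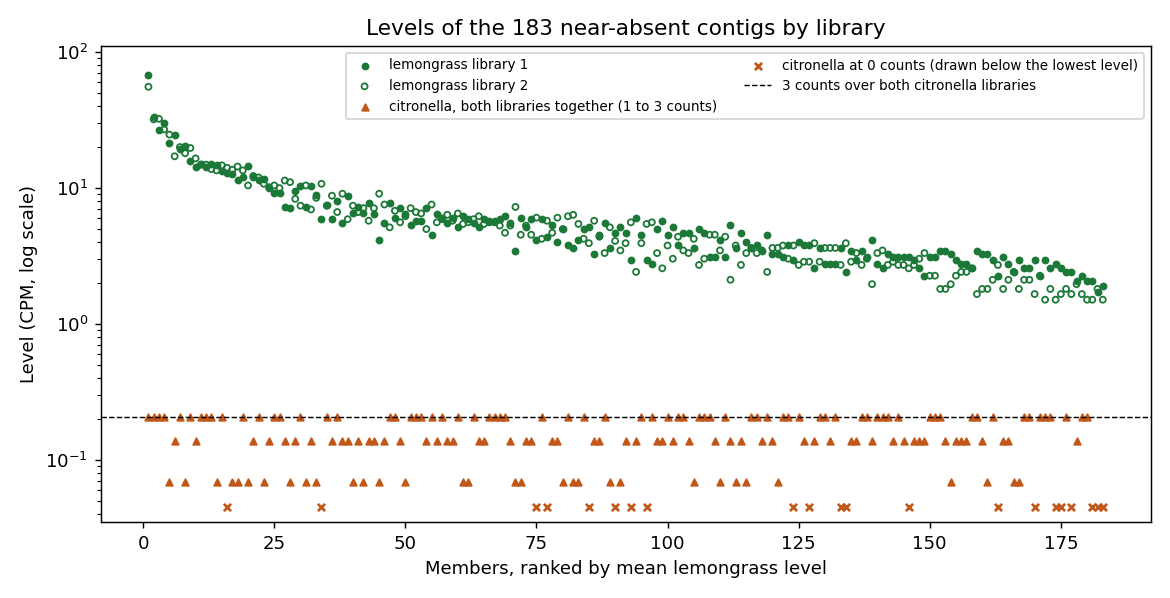
Level of each of the 183 members in CPM on a log scale, ranked by mean lemongrass level. Filled and open circles are the first and second lemongrass library, triangles are the 2 citronella libraries together, and crosses are the 21 members with 0 citronella counts, drawn below the scale of the others. The lemongrass points run from 67.2 down to 1.51 CPM and lie above the dashed line at 3 pooled citronella counts (0.209 CPM), while the triangles fall on 3 steps for 1, 2 and 3 counts.

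Near-absence means a level at or close to what the sequencing could detect. A count of 0 still allows up to 3 counts, which is 0.316 CPM in the first citronella library, 0.615 CPM in the second and 0.209 CPM over both. For a pooled count of 3, the most a member could have, the upper end of the 95% exact Poisson interval was 0.610 CPM. The lowest member stood at 1.70 CPM in lemongrass, above each of these limits. At the same pooled CPM as in lemongrass, a member would have given from 24.3 to 873 counts in the citronella libraries together, with a median of 61.3. Depth therefore left room to see each member in citronella at its lemongrass level. It did not leave room to tell a low citronella level from none.

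Complete absence from the citronella reads was seen in few members, a share that follows the limit of 3 counts. Among all 24315 contigs detected in lemongrass, the same 21 had 0 citronella counts. Of the 183 members, 21 had 0 counts in both citronella libraries, 32 had 1 count in the libraries together, 58 had 2 and 72 had 3. Counts were seen in both citronella libraries for 74 members, in the first alone for 60 and in the second alone for 28. Thus 162 members had at least 1 citronella read. The highest member with 0 citronella counts had 74 and 93 counts in lemongrass and ranked 16 in the set. Against the floor of 3 pooled counts, its observed level in lemongrass was 64.3-fold higher. For all 21 this ratio ran from 8.09 to 64.3. It leaves out counting error in lemongrass, so it is not a limit like those of the exact intervals below. The 162 members with 1 to 3 citronella counts had ratios of 8.48 to 331. The lower ends of their 95% exact intervals ran from 2.55 to 99.2, so for the least abundant members a fold of a few remained within counting error. These intervals do not allow for the choice of members on the same counts.

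Members with 0 citronella counts were mostly those of low lemongrass level. Below 3 CPM in lemongrass, 9 of 42 members (21.4%) had 0 counts in citronella. From 3 to 5 CPM it was 8 of 62 (12.9%), and from 5 to 10 CPM 3 of 55 (5.45%). Of the 24 members at 10 CPM or more, 1 had 0 counts. The mean citronella count of the members was 1.86 counts below 3 CPM and 2.00 counts between 10 and 20 CPM, where the rule allows at most 3. It was 2.4 counts for the 5 members between 20 and 50 CPM, and the leading member had 3.

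The summed citronella level of the members was 22.9 and 30.1 CPM in the first and second library. The first held 59.6% of the members' citronella counts and 66.1% of all citronella counts. The rule capped these counts, so they are given as a description, and the part of depth or library preparation was not tested.

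The limit of 3 counts did not fall in a gap between present and absent contigs. Just inside it, 72 members had 3 citronella counts and a median lemongrass level of 4.15 CPM. Just outside it, 82 contigs had 4 counts, with a median of 4.25 CPM. The number of contigs climbed over the first steps and then stayed level, with 87 contigs at 5 counts, 77 at 10 and 99 at 40. On the lemongrass side, 6 members had exactly 10 counts in their lower library, and 11 contigs with 3 or fewer citronella counts missed the rule at 9. The size of the set follows the limits: with 0, at most 1 and at most 10 citronella counts allowed it held 21, 53 and 775 contigs.

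**Figure D2:**
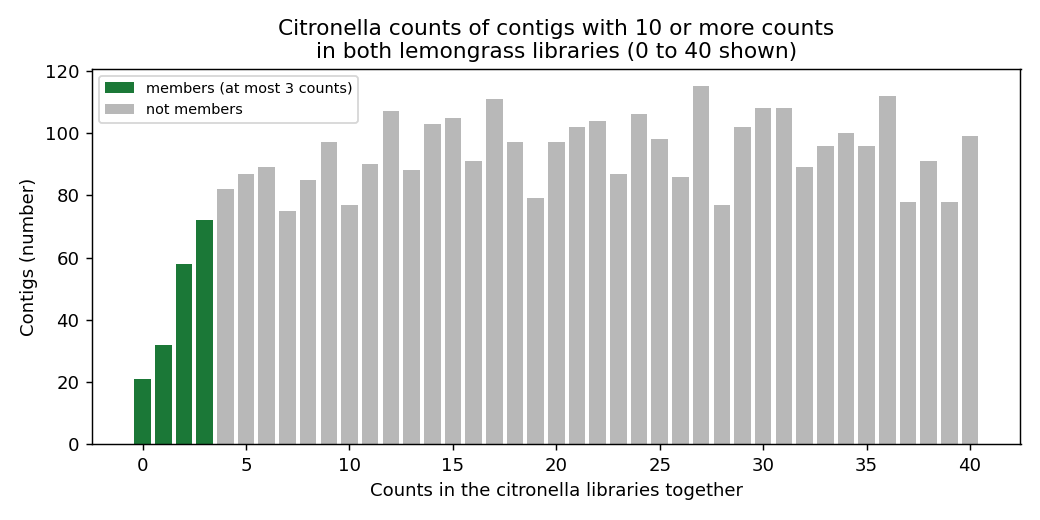
Number of contigs detected in both lemongrass libraries (vertical axis) by their counts in the citronella libraries together (horizontal axis, 0 to 40 shown). Green bars are the 183 members, and grey bars are contigs outside the rule. The bars climb from 21 contigs at 0 counts to 72 at 3 and 82 at 4, with no empty step between members and the rest.

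A citronella library that had no part in the choice gave counts that the choice did not use. When the rule was applied without the first citronella library, asking for at most 3 counts in the second alone, 946 contigs passed. Their counts in the first library ran from 0 to 50 with a median of 5, where their lemongrass level would have given a median of 41.5. Of the 946, 699 (73.9%) were more than 4-fold below their lemongrass level in that library, against 8.74% of all 24315 contigs detected in lemongrass, these included. At or above their lemongrass level were 10 of the 946, against 49.6% of the detected contigs. These shares are not matched for level: the median lemongrass level was 4.38 CPM for the 946. It was 10.6 CPM for the detected contigs outside the 183 members. Most contigs near-absent from the second library were thus low in the first as well, but 310 of them (32.8%) had 3 or fewer counts there.

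The reverse choice asked for at most 3 counts in the first, deeper library. Without the second citronella library 374 contigs passed. Their counts in the second ran from 0 to 18 with a median of 2, where the lemongrass level would have given 21.0. More than 4-fold below lemongrass were 337 (90.1%), against 10.1% of the contigs detected, and 2 were at or above it. The median lemongrass level of the 374 was 4.31 CPM, so level was not matched here either. In these contigs lemongrass was 13.9-fold above the second citronella library in summed CPM, and in the 946 it was 8.27-fold above the first. Both are below the 45.3-fold of the 183 members, whose choice used both citronella libraries. The limits differ as well, as 3 counts is 0.615 CPM in the second library, 0.316 CPM in the first and 0.209 CPM over both. The part of each difference in the choice was not tested. The lemongrass libraries entered both choices, so the lemongrass side is not independent. This holds for the fold values and for the shares of contigs below or above their lemongrass level.

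**Figure D3:**
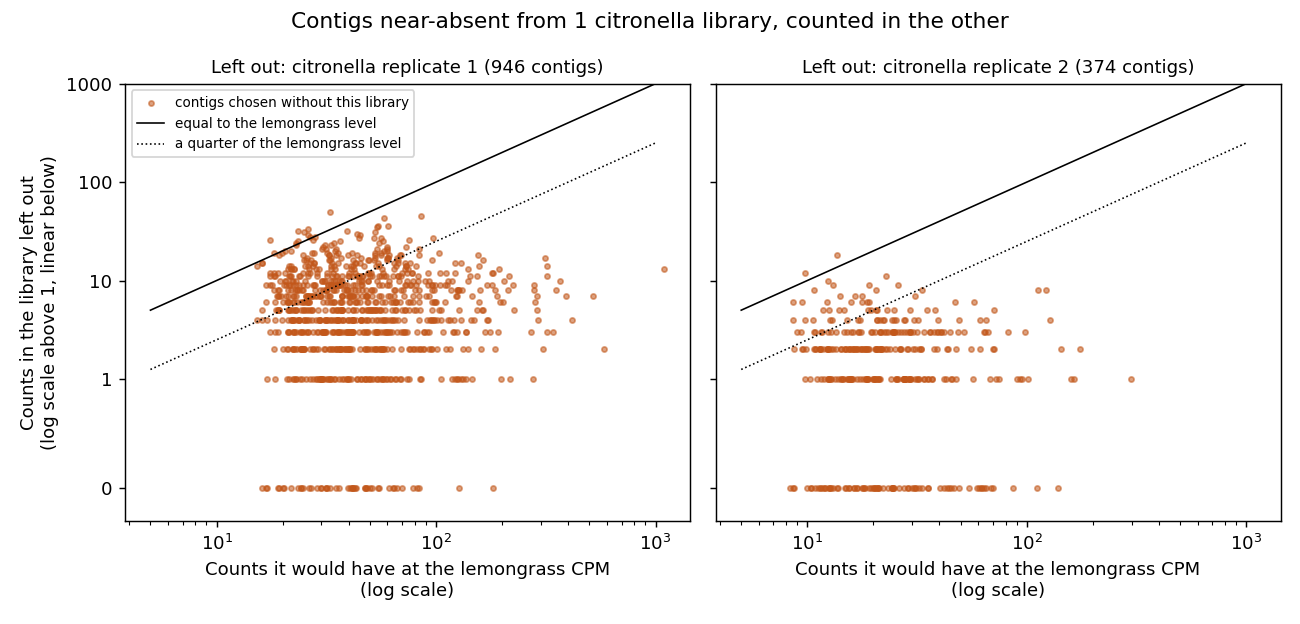
Counts in the citronella library left out (vertical axis, log scale above 1 and linear below) against the counts it would have at the mean lemongrass CPM (horizontal axis, log scale). Each point is a contig chosen without that library, 946 in the left panel and 374 in the right, the solid line is an equal level and the dotted line a 4-fold lower one. Below the dotted line lie 699 of the 946 points and 337 of the 374.

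The lemongrass side of the rule was treated in the same way. Chosen without the first lemongrass library, 193 contigs passed, and their counts in it ran from 6 to 389. In that library 183 (94.8%) had 10 or more, which by the rule are the members, and 181 of the 193 were within 2-fold of their level in the second. Chosen without the second, 216 passed, and their counts in it ran from 0 to 366. Of these, 183 (84.7%) had 10 or more, again the members, 187 were within 2-fold, and 8 had 3 or fewer. Over all contigs the order was the same: of 24490 with 10 or more counts in the second lemongrass library 99.3% reached 10 in the first, and of 25138 with 10 or more in the first 96.7% reached 10 in the second. These shares are not matched for level. In the library that chose them, the 193 had a median of 4.07 CPM and the 216 a median of 3.80 CPM.

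The lemongrass libraries differed little over the members. Members and the other contigs compared here had 10 or more counts in both, which limits the gap possible for scarce contigs. The median ratio of the second library to the first was -0.11 on the log2 scale, with 73 members higher in the second and 110 in the first. In 8 members (4.37%) the libraries were over 2-fold apart. The widest gap was 2.54-fold, in a member with 31 and 14 counts. Among the other contigs detected in both, 561 of 24132 (2.32%) were over 2-fold apart, 96 higher in the second library and 465 in the first. The median level was 4.29 CPM for the members and 10.6 CPM for these other contigs. Below 3 CPM the share over 2-fold apart was 2.38% of members (1 of 42) and 8.01% of others, from 3 to 5 CPM 8.06% of members (5 of 62) and 7.03% of others, and from 5 to 10 CPM 3.64% of members (2 of 55) and 1.80% of others. With 1 CPM added to each level the numbers were 2 of 183 members and 152 of 24132 others.

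Set beside other contigs of their level, the members showed a like spread in the classes that held most of them. Below 3 CPM the median absolute log2 ratio of the lemongrass libraries was 0.43 for the members and 0.39 for the other contigs. From 3 to 5 CPM it was 0.41 for the members and 0.37 for the others, and from 5 to 10 CPM it was 0.25 for the members and 0.28 for the others. Over all levels, a chi-square statistic against sampling noise averaged 1.56 per member and 1.87 per other contig. Sampling noise alone gives about 1 where no minimum count is asked of both libraries. Within classes the statistic averaged 1.01 for members and 1.17 for others below 3 CPM, and 1.81 and 1.70 from 3 to 5 CPM. It was 1.75 and 1.78 from 5 to 10 CPM, and 0.75 and 1.92 from 10 to 20 CPM. From 20 to 50 CPM it was 2.93 and 1.89, and from 50 to 100 CPM 7.40 and 2.07. In the classes with few members the order varied: the median absolute log2 ratio was 0.13 for members and 0.21 for others from 10 to 20 CPM (18 members), and 0.21 for members and 0.13 for others from 20 to 50 CPM (5 members). The leading member, above 50 CPM, had 0.29, against 0.09 for the others of its class. No test was made of these differences.

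Near-absence from citronella was more frequent among scarce contigs. Members made up 2.01% of the contigs below 3 CPM in lemongrass, 1.48% from 3 to 5 CPM and 0.990% from 5 to 10 CPM. The share went on down to 0.454% from 10 to 20 CPM, 0.123% from 20 to 50 CPM and 0.0446% from 50 to 100 CPM. The rule acts on raw counts, and a limit of 3 counts asks for a larger fold of an abundant contig than of a scarce one. How much of the slope comes from this was not tested.

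The numbers in the contig IDs, which the rule did not use, followed the level of the contigs. Over the 23576 contigs numbered above 2000, the number and the count had a Spearman rho of -0.919 and -0.894 in the first and second lemongrass libraries, against -0.703 and -0.665 in the first and second citronella libraries. These are descriptions across contigs of 1 table. Above 2000, the numbering thus ran from abundant to scarce contigs and was closest to the counts of the first lemongrass library. The sources used here do not say how the contigs were built and numbered.

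The members sat late in this numbering, with a median number of 18592 against 12151.5 for the other contigs detected in lemongrass. Within level classes the difference ran in either direction. Below 3 CPM the median number was 22427 for the members and 22494 for the others, from 3 to 5 CPM 20847.5 for the members and 19934 for the others, and from 5 to 10 CPM 15340 for the members and 15692 for the others. In the classes with few members the members' median was lower: 8413.5 against 11367 from 10 to 20 CPM (18 members) and 6632 against 7567.5 from 20 to 50 CPM (5 members). The 1 member above 50 CPM was numbered 2367, against a median of 4890. Members were 1 of 2000 contigs numbered 2001 to 4000 and 30 of 2000 numbered 22001 to 24000. The first 2000 numbers, which the Spearman rho left out, held 14 members. Their median lemongrass level was 5.66 CPM, against 23.0 CPM for all contigs of that block. In 3 cases 2 members had consecutive numbers.

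**Figure D4:**
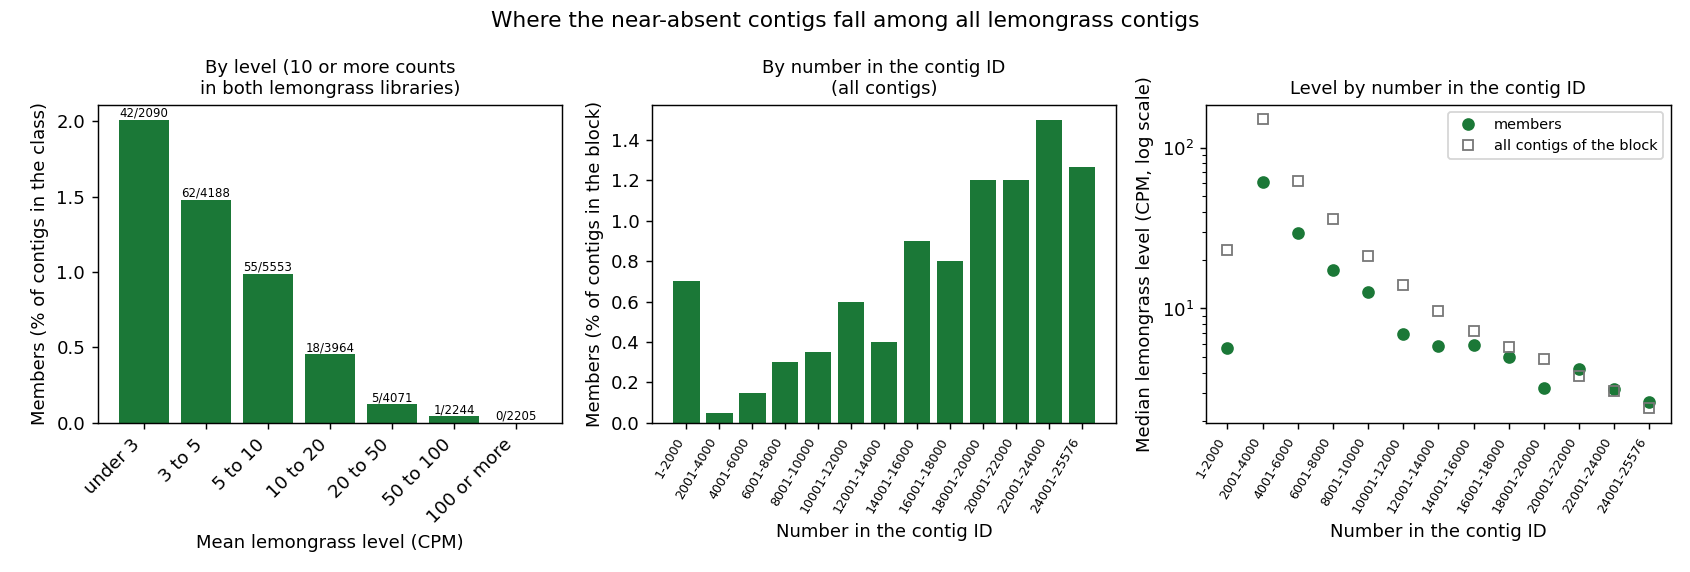
Left, members as a percentage of the contigs in each class of mean lemongrass level, with members and contigs of the class printed above the bars. Middle, members as a percentage of all contigs in blocks of the number in the contig ID, and right, the median lemongrass level of members (filled circles) and of all contigs (open squares) in each block on a log scale. The share of members falls from 2.01% below 3 CPM to 0 of 2205 contigs at 100 CPM or more, and is lowest, at 0.05%, in the block from 2001 to 4000.

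In the fit across all lemongrass contigs, 178 of the 183 members passed the filter on low counts, and all 178 were called higher in lemongrass (edgeR's quasi-likelihood test, Benjamini-Hochberg adjusted p below 0.05). Of all 25107 contigs tested, 54.8% were called in either direction and 27.6% higher in lemongrass. As the rule used the same counts, nothing is read from the members' share. The members tested had log2 fold changes, lemongrass minus citronella, from 3.07 to 8.06 where citronella counts were above 0, and a median of 4.92 over all 178, beside a median of 0.005 over all contigs tested. The 18 members at 0 citronella counts were also set to their ratio to the floor of 3 counts, at most 6.01 in log2. The median over all 178 was then 4.70. The 5 members not tested stood between 1.70 and 2.22 CPM in lemongrass, with 10 counts in the second library.

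The opposite pattern was not seen on these contigs. No contig had 10 or more counts in both citronella libraries and at most 3 in lemongrass together, but 10 of 25576 had 3 or fewer counts in lemongrass at all, against 256 with 3 or fewer in citronella. The contig set thus held few candidates for it.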

How the data were processed

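The authors deposited whole-number counts per contig, per the file headers, with a column for each of the 4 libraries. Column totals differ, so the values were taken as raw counts. The submitters' processing notes list HISAT2, HTSeq, SAMtools, edgeR, Trimmomatic 0.32 and FastQC 0.11.2, without roles. The sources used here do not state the reference, how contigs were built or how reads that fit several contigs were treated, so reads of near-identical contigs could be split or lost. A second table, on citronella contigs, was not used because its IDs do not pair with these.

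Groups came from the sample titles. CPM is the count over the column total. The fit used edgeR 4.0.16 in R 4.3.3 (filterByExpr, TMM, glmQLFit, glmQLFTest; all 4 libraries, no block) and was tested on simulated data. DESeq2 1.42.0 was an alternative. Intervals are exact at 95%, and intervals and floors (3 counts) cover counting error only. They do not allow for the choice of members, which used the same counts. The 2 members with the highest mean lemongrass CPM were named by ID. Members, limits and lists were chosen with earlier results of these data known.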

Additional observations from a re-analysis of the deposited data

How the results depend on the processing

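The number of near-absent contigs, their share of lemongrass counts and their median lemongrass level follow the limits and the depth. With at least 20 lemongrass counts there were 107 contigs (share 0.0926%, median 6.03 CPM), and with at least 5 the share was 0.122% and the median 3.72 CPM. With 0, at most 1 and at most 10 citronella counts the numbers were 21, 53 and 775 and the shares 0.00813%, 0.0314% and 0.489%, and the median at 0 counts was 3.17 CPM. In 1 random thinning of all libraries to 4875674 counts, 300 contigs passed (0.203%, 4.92 CPM). With each library left out, the numbers ran from 193 to 946, the shares from 0.116% to 0.597% and the medians from 3.80 to 4.38 CPM. The numbers over 1.5 times that of the full rule were 946 and 374, without the first and the second citronella library, where at most 3 counts were asked of 1 library alone.

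With all 4 libraries, each edgeR alternative called every member tested: 178 of 178, or 183 of 183 with no filter on low counts. The rule used the same counts, so nothing is read from the calls of members. All called contigs ran from 10188 of 25574 tested (DESeq2) to 14563 of 25107 (replicate numbers crossed). Those called higher in lemongrass ran from 5098 to 7335 in the same 2 fits. The median log2 fold change of the members, whose direction the rule fixes, ran from 4.85 to 5.36, also with each library left out. DESeq2 called 178 of the 183 members. With 0.1 and 10 CPM added to the levels, the lemongrass libraries were over 2-fold apart in 7 and 0 members, against 2 with 1 CPM.

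Replicate numbers are shared by the species, but nothing in the labels makes them a pairing. The replicate differences of the species correlated with r = -0.115 over 24959 contigs. With the replicate block, 12968 of 25107 contigs tested were called, 6574 of them higher in lemongrass, and 178 of 178 members tested. With the numbers crossed, an alternative chosen after seeing the data, 14563 of 25107 were called, 7335 higher in lemongrass, and again 178 of 178 members. The rule used the same counts, so the calls of members say nothing about a pairing.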
